A study of Mus musculus with 24 samples.

Results

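The genes described here are 10 genes that mark arterial endothelium or carry Notch signals between cells: Gkn3, Bmx, Sema3g, Gja4, Gja5, Efnb2, Dll4, Jag1, Notch1 and Hey1. They were found by gene symbol, and each matched 1 row of the 36109 genes in the lung table and of the 36595 genes in the retina table. All 10 passed the filter on low counts in both tissues. Gkn3 was chosen by its low measured level in retinas of hyperoxia-exposed mice, so its retinal values under hyperoxia are given as a description without a test, and the other 9 genes were counted there.

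The study sequenced RNA of whole lungs and whole retinas from 24 neonatal C57/B6 mice, 1 tissue per mouse, in 4 groups of 3 mice per tissue. Gasdermin D knockout mice (GSDMD-KO), which carry a germline CRISPR deletion in Gsdmd in all cells, were set beside wild-type (WT) littermates. Lungs came from mice kept in 85% O2 or in room air at 21% O2 from postnatal day 1 to 14 and collected on day 15. Retinas came from mice kept in 75% O2 from day 7 to 12 and then in room air until day 18, the mouse model of retinopathy of prematurity, or from mice kept in room air throughout. Room air groups are written WT-RA and KO-RA, and hyperoxia-exposed groups WT-O2 and KO-O2. The questions were what hyperoxia did to these genes in each genotype, and whether the genotypes differed.

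In Notch signaling, a ligand such as Dll4 or Jag1 on one cell binds a receptor such as Notch1 on its neighbour. The receptor is then cleaved, and its inner part enters the nucleus, joins the DNA-binding protein RBPJ and switches on repressors of the Hes and Hey families. In blood vessels this pathway sets arterial identity and limits sprouting, and VEGF raises Dll4 at the growing tips of retinal vessels. Efnb2 encodes the arterial ligand of the venous receptor Ephb4, Gja4 and Gja5 encode connexins that form gap junctions in arterial walls, Bmx is a tyrosine kinase, Sema3g is a secreted semaphorin, and Gkn3 is a secreted gastrokine found in arterial endothelium of the nervous system.

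Total counts per library were 28763661 to 29604254 in the lung and 24863257 to 29093035 in the retina. Values below are CPM, counts relative to library size after TMM scaling, which can be compared between mice of 1 tissue and not between genes or tissues. Lung epithelium markers summed to 20290 CPM or more in every lung and photoreceptor markers to 48840 CPM or more in every retina. Gsdmd, the targeted gene, was 41.4 ± 0.88 CPM (SD, n = 3) in WT-RA and 24.0 ± 1.2 in KO-RA lungs, and 34.4 ± 2.1 in WT-O2 and 13.7 ± 2.4 in KO-O2 lungs, with no overlap. In retinas it was low, at 0.636 to 2.95 CPM in GSDMD-KO and 0.419 to 5.70 CPM in WT, so there it overlapped between genotypes. Lens markers reached 21430, 67080 and 36340 CPM in the room air retinas WT-RA replicates 2 and 3 and KO-RA replicate 3, against at most 247 CPM in the other 9 retinas. Y-linked transcripts were present in all 6 room air retinas and in 2 of 6 hyperoxia-exposed ones, so sex and exposure nearly coincided there. Among the lungs, KO-O2 replicates 1 and 2 held the most erythroid RNA of the hyperoxia-exposed mice, and replicate 1 also held 173 CPM of liver markers against at most 3.01 CPM elsewhere.

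Sema3g, Gja4, Hey1, Efnb2 and Bmx fell in the lung after hyperoxia in both genotypes, and Dll4, Jag1 and Notch1 did not pass the test. In WT, 6 of 10 genes were lower and none higher at an adjusted p under 0.1 (edgeR quasi-likelihood test, Benjamini-Hochberg over all genes tested), where 24.7% of all tested genes were lower and 24.5% higher. In GSDMD-KO, 5 of 10 were lower and none higher, beside 23.4% lower and 23.3% higher among all genes. The median log2 fold change of the 10 genes was -0.98 in WT and -0.43 in GSDMD-KO, beside -0.01 in both genotypes for all genes tested. With the study's added requirement of a fold change of at least 2, 5 genes were past the threshold in WT and 4 in GSDMD-KO, beside 11.6% and 10.6% of all genes. In RNA of a whole tissue, fewer cells of a type and less RNA per cell cannot be told apart.

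Sema3g showed the largest fall of the 10 genes in the lung. Its levels were 228, 176 and 177 CPM in WT-RA and 43.9, 33.9 and 39.6 CPM in WT-O2. In KO-RA they were 182, 199.5 and 202 CPM, and in KO-O2 37.0, 50.2 and 35.4 CPM. Every hyperoxia-exposed lung was below every room air lung of both genotypes. The log2 fold change was -2.30 (SE 0.15, adjusted p = 5.75e-08) in WT and -2.25 (SE 0.15, adjusted p = 8.97e-08) in GSDMD-KO, a level 4.93 and 4.75 times lower.

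Gja4 fell by about as much. It was at 83.5, 103 and 168 CPM in WT-RA and at 26.9, 29.8 and 28.5 CPM in WT-O2. The KO-RA lungs held 143, 118 and 91.0 CPM and the KO-O2 lungs 19.4, 32.0 and 29.4 CPM. The room air lungs spread more widely than the hyperoxia-exposed ones, and the exposures did not overlap. On the log2 scale the fall was -2.06 (SE 0.28, adjusted p = 0.000242) in WT and -2.12 (SE 0.28, adjusted p = 0.000222) in GSDMD-KO. Gja5, the other connexin, changed less. Its exons overlap a gene on the opposite strand, as those of Dll4 and Notch1 do, and whether reads were counted by strand is not given in the sources used here, so reads of such partners cannot be told apart. It was at 65.9, 61.1 and 70.1 CPM in WT-RA and at 54.3, 50.6 and 52.6 CPM in WT-O2, a log2 fold change of -0.32 (SE 0.08, adjusted p = 0.00439). In GSDMD-KO its log2 fold change was -0.01 (95% interval -0.18 to 0.16), with 46.4, 50.6 and 48.4 CPM in KO-RA and 46.0, 52.1 and 46.0 CPM in KO-O2.

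Hey1, the nuclear repressor that Notch switches on, was at 119, 92.4 and 118 CPM in WT-RA and at 34.1, 31.6 and 27.1 CPM in WT-O2. In GSDMD-KO it was at 112, 127 and 116 CPM in room air and at 21.4, 36.4 and 31.7 CPM after hyperoxia. These ranges were far apart in both genotypes. Its fold change on the log2 scale was -1.83 (SE 0.17, adjusted p = 2.79e-06) in WT and -1.99 (SE 0.17, adjusted p = 1.65e-06) in GSDMD-KO.

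Efnb2 and Bmx also fell in both genotypes. Efnb2 was at 351, 266 and 226 CPM in WT-RA against 128, 92.5 and 99.0 CPM in WT-O2, and at 215, 228 and 266 CPM in KO-RA against 112, 126 and 111 CPM in KO-O2. Its log2 fold change was -1.40 (SE 0.16, adjusted p = 1.4e-05) in WT and -1.02 (SE 0.16, adjusted p = 0.000205) in GSDMD-KO. Bmx, read by 94 to 298 counts per lung, was at 10.1, 10.0 and 7.74 CPM in WT-RA and at 4.23, 3.78 and 3.17 CPM in WT-O2. In GSDMD-KO it was at 6.73, 8.41 and 6.58 CPM in room air and at 3.95, 4.57 and 4.52 CPM after hyperoxia. For Bmx the log2 fold change was -1.32 (SE 0.17, adjusted p = 2.13e-05) in WT and -0.74 (SE 0.16, adjusted p = 0.00262) in GSDMD-KO. The effects on Bmx in GSDMD-KO and WT differed by 0.58 on the log2 scale (95% interval 0.09 to 1.08, adjusted p = 0.682), which did not pass the test of the difference.

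The Notch ligands and the receptor gave no change past the threshold in the lung. Dll4 ranged from 66.9 to 123 CPM over the 12 lungs, with a log2 fold change of 0.20 (95% interval -0.11 to 0.52) in WT and 0.03 (-0.28 to 0.35) in GSDMD-KO. Jag1 ranged from 24.6 to 46.8 CPM, with 0.26 (-0.18 to 0.69) and 0.14 (-0.30 to 0.57). Notch1 ranged from 156 to 228 CPM, with -0.14 (-0.38 to 0.10) and -0.13 (-0.37 to 0.10). A fall as large as that of Hey1 lay outside the intervals of all 3 genes. Gkn3 was barely detected in the lung, at 0.949 to 2.44 CPM or 28 to 71 counts. Its log2 fold change was -0.65 (SE 0.31, adjusted p = 0.111) in WT and 0.46 (SE 0.32, adjusted p = 0.272) in GSDMD-KO.

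**Figure D1:**
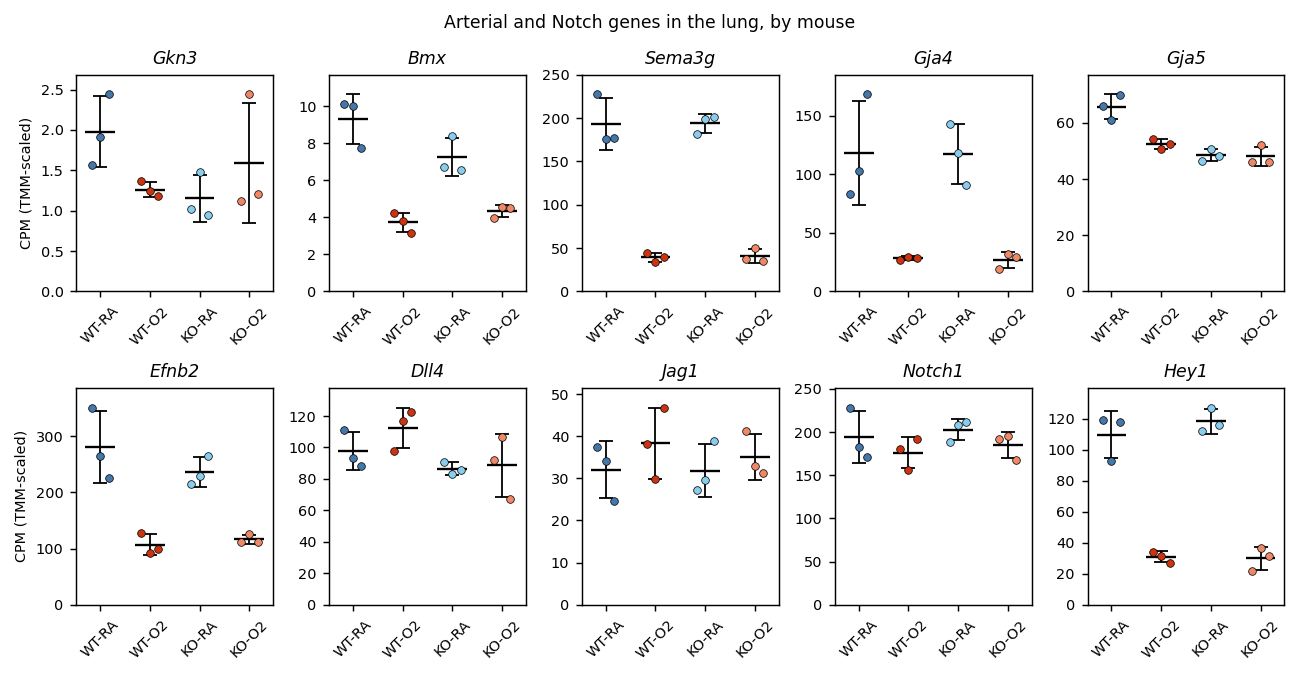
Levels of the 10 genes in the lung in CPM (vertical axis, from 0) in the 4 groups. Points are single mice, lines are means and bars SDs of 3 mice. Sema3g, Gja4, Hey1, Efnb2 and Bmx lay lower in WT-O2 and KO-O2 than in WT-RA and KO-RA, while the points of Dll4, Jag1 and Notch1 overlapped between exposures.

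In the lung the 15 markers shared by all endothelium summed to 6009 to 6410 CPM in WT-RA and 4835 to 5414 CPM in WT-O2, and to 5597 to 6011 CPM in KO-RA and 4521 to 5580 CPM in KO-O2. Their median log2 fold change was -0.26 in WT and -0.21 in GSDMD-KO, with 8 of 15 lower and 3 higher in WT and 7 lower and 1 higher in GSDMD-KO. Summed levels did not overlap between exposures in either genotype. They were not uniform, since Tek, the angiopoietin receptor, fell by 2.47 on the log2 scale in WT (SE 0.12, adjusted p = 3.69e-09), Erg, a transcription factor, was at -1.06 (adjusted p = 5.67e-07), Tie1, the other receptor of that family, was at -0.95 (adjusted p = 1.3e-06), and Kdr, the main VEGF receptor, was at 0.17 (adjusted p = 0.249) in WT and 0.82 (adjusted p = 6e-05) in GSDMD-KO. When libraries were scaled to these endothelial counts instead of to all genes, the median of all genes moved to 0.26 in WT and 0.17 in GSDMD-KO. On that scale Sema3g was at -2.03 in WT and -2.08 in GSDMD-KO, Gja4 at -1.79 and -1.93, Hey1 at -1.55 and -1.80, Efnb2 at -1.13 and -0.84, and Bmx at -1.05 and -0.54, each still past the threshold. Gja5 was then at -0.05 in WT (adjusted p = 0.7). Dll4 at 0.48 (adjusted p = 0.0031) and Jag1 at 0.52 (adjusted p = 0.0291) were past the threshold in WT on that scale, where 43.3% of all genes were higher and 11% lower in WT, and 34.2% and 12.1% in GSDMD-KO. Erythroid markers were at 2920 to 4152 CPM in WT-O2 lungs against 15750 to 18150 CPM in WT-RA lungs, and at 26290 and 29930 CPM in KO-O2 replicates 1 and 2. Without those 2 KO-O2 lungs, a setting added after seeing the data, 1 hyperoxia-exposed GSDMD-KO lung is left and is assumed to vary like the others. In GSDMD-KO Sema3g was then at -2.45, Gja4 at -1.99, Hey1 at -1.90, Efnb2 at -1.08 and Bmx at -0.68.

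The rest of the pathway was measured in the same lungs, where 24.5% of all genes were higher and 24.7% lower in WT, and 23.3% and 23.4% in GSDMD-KO. Of the other Notch ligands and receptors, 5 of 6 tested were lower and none higher in each genotype. Jag2, a ligand, was at -0.35 (adjusted p = 0.00491) in WT and -0.72 (adjusted p = 1.4e-05) in GSDMD-KO, Notch4, the endothelial receptor, at -0.40 (adjusted p = 0.0129) and -0.89 (adjusted p = 4.16e-05), Notch3, the receptor of mural cells, at -0.55 (adjusted p = 0.00025) and -0.46 (adjusted p = 0.0011), and Dll1, another ligand, at -0.95 (adjusted p = 0.00221) and -1.23 (adjusted p = 0.00039). Among the other Notch targets 2 of 4 were lower, Hey2 at -1.23 in both genotypes (adjusted p = 2.54e-05 and 3.14e-05) and Heyl at -0.41 and -0.44 (adjusted p = 0.00399 and 0.00273). Of 19 genes of the Notch machinery 3 were higher and 5 lower in WT and 4 higher and 2 lower in GSDMD-KO. Lfng, which glycosylates Notch receptors, was at -0.87 and -1.01 (adjusted p = 0.000109 and 3.29e-05), Numb, an inhibitor of Notch, at -0.62 and -0.72 (adjusted p = 0.00016 and 4.59e-05), Neurl1a, a ubiquitin ligase, at 0.92 and 0.46 (adjusted p = 4.45e-05 and 0.00857), and Rbpj at 0.19 (adjusted p = 0.0498) and 0.50 (adjusted p = 0.000101). Of 14 further arterial genes 6 were lower and 2 higher in WT, and 7 lower and 4 higher in GSDMD-KO. Sox17, an arterial transcription factor, was at -1.63 and -1.74 (adjusted p = 3.93e-08 and 2.7e-08) and Cxcr4, a chemokine receptor, at -2.39 and -2.22 (adjusted p = 1.67e-06 and 3.47e-06). Stmn2 was at -0.89 and -0.83 (adjusted p = 0.00015 and 0.000282) and Cxcl12, the ligand of Cxcr4, at -0.66 and -0.69 (adjusted p = 0.000325 and 0.000238). The 2 arterial genes that were higher in WT were also higher in GSDMD-KO. Unc5b was at 0.95 and 0.87 (adjusted p = 0.00139 and 0.00268) and Dkk2 at 1.59 and 2.49 (adjusted p = 0.00566 and 0.000503). Of 8 venous genes 4 were lower and 3 higher in WT, and 4 lower and 4 higher in GSDMD-KO. The apelin receptor Aplnr was at -3.38 and -3.06 and Ephb4, the receptor of Efnb2, at -0.95 and -0.98, while Nrp2, a semaphorin and VEGF co-receptor, was at 0.88 and 1.12 and Selp, P-selectin, at 2.33 and 2.69, all with adjusted p of 5.13e-06 or less. Of 7 smooth muscle markers 5 were higher in WT and 4 in GSDMD-KO, and none was lower, with Actg2 at 1.53 and 1.55, Cnn1 at 1.23 and 1.16, Acta2 at 1.16 and 1.21 and Myocd at 1.12 and 0.97.

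The genotypes differed past the threshold in 1 of these genes in the lung, Gja5 in room air. Between KO-O2 and WT-O2 none of the 10 was past an adjusted p of 0.1 by edgeR or by DESeq2, and 1, Dll4, was past an unadjusted p of 0.05, at -0.34 (95% interval -0.66 to -0.03). Of all genes 0.0416% were past the adjusted and 6.21% past the unadjusted threshold. For Sema3g, Gja4 and Hey1 the difference was 0.06 (-0.24 to 0.37), -0.08 (-0.70 to 0.55) and -0.05 (-0.41 to 0.31), whose ends all lie closer to 0 than the hyperoxia effects on these genes. Between KO-RA and WT-RA 1 of 10 genes was past the threshold, beside 0.488% of all genes. Gja5 was lower in KO-RA at -0.44 (SE 0.08, adjusted p = 0.044), with the 3 KO-RA lungs below the 3 WT-RA lungs. A list of 6 heart muscle markers also summed lower in KO-RA, at 130 to 141 CPM against 157 to 350 CPM in WT-RA. Their median log2 difference was -0.63, with none past the adjusted threshold by edgeR. Under hyperoxia their median log2 fold change was -0.40 in WT and 0.25 in GSDMD-KO. The part of heart muscle RNA in the values of Gja5 was not tested. WT-RA lungs held Y-linked transcripts in 0 of 3 mice and KO-RA lungs in 2 of 3. WT-O2 lungs held them in 1 of 3 mice and KO-O2 lungs in 3 of 3, so sex and genotype partly coincided in the lung. With sex as a term Gja5 was at -0.47 in room air (adjusted p = 0.221). Leaving out KO-RA replicate 2 or 3 also ended the call, at -0.47 (adjusted p = 0.155) and -0.44 (adjusted p = 0.174). The effect of hyperoxia did not differ between genotypes past the threshold for any of the 10 genes by edgeR or DESeq2, beside 0.00595% of all genes, and Gkn3, Bmx and Gja5 were past an unadjusted p of 0.05, beside 6.72%.

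In the lung the 5 genes whose log2 levels followed Bmx most closely over the 12 lungs were Cdk19 and Gbp4 (Pearson r = 0.98 for each), Samhd1 (r = 0.975), Gpd1l (r = 0.97) and Sema6a (r = 0.97). All 12 lungs share the split by exposure, which these correlations include. Gbp4 averaged 60.1 CPM in WT-RA and 16.2 CPM in WT-O2, and 45.6 CPM in KO-RA and 19.4 CPM in KO-O2.

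Since Sema3g, Gja4 and Bmx fell in the lung in both genotypes and Gkn3 was chosen by its values in the retina, the 250 bases before their start sites are shown. The window of Efnb2, which also fell in both genotypes, is not shown and held none of the sequences searched for below. The windows are from RefSeq on GRCm38.p6, whose promoter table held 9 of the 10 genes and not Hey1. The Sema3g window is chr14:31217623-31217872 on the forward strand. The windows of Gja4 at chr4:127314040-127314289, Bmx at chrX:164258194-164258443 and Gkn3 at chr6:87388936-87389185 lie on the reverse strand. Each is read 5′ to 3′ along the gene, and capitals mark the core that RBPJ binds (TGGGAA) and the core that SOX factors bind (ACAAT), on either strand.
Sema3g: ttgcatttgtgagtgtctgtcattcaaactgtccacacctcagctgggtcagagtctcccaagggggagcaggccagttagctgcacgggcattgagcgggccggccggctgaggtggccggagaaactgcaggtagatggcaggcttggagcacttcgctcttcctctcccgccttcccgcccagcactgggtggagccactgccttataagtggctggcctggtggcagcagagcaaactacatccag
Gja4: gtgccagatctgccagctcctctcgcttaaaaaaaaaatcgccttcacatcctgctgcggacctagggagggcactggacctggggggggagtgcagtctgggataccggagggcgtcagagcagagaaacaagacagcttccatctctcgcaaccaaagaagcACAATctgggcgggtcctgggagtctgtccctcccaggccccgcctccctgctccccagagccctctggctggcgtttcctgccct
Bmx: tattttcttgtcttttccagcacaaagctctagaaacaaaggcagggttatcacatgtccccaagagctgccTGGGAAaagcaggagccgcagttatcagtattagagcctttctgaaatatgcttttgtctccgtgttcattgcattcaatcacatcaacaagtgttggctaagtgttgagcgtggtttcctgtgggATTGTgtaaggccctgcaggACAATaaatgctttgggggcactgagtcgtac
Gkn3: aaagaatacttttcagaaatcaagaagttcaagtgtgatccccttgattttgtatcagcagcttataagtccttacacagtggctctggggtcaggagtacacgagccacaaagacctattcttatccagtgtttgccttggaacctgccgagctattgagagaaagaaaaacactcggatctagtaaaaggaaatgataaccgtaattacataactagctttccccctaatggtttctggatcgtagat
Bmx was the only one of the 9 member promoters with the RBPJ core, 178 bases before its start, a core that 21.6% of 32851 promoters of the same length held. The SOX core was in 3 of the 9, Bmx, Gja4 and Jag1, and in 27.7% of all. The E-box CACGTG, which Hey and Hes repressors bind, was in 0 of the 9 and in 6.02% of all. These are matches of letters within this window only.

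The retina showed another pattern at day 18. Gkn3 was far lower in hyperoxia-exposed mice, while Gja4 and Dll4 were higher in both genotypes, and Sema3g, Bmx, Gja5, Efnb2 and Hey1 did not pass the test. Of the 9 genes counted, 3 were higher and none lower in WT, beside 3.11% higher and 2.05% lower among all genes tested. In GSDMD-KO 2 were higher and 1 lower, beside 4.38% higher and 3.44% lower. With a fold change of at least 2 the counts were 3 in WT and 1 in GSDMD-KO, beside 2.04% and 2.19% of all genes. The median log2 fold change of the 9 was 0.09 in WT and 0.14 in GSDMD-KO, close to the medians of all genes, which were 0.00 in each genotype.

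Gkn3 was at 2.28, 3.20 and 2.18 CPM in WT-RA retinas and at 0.308, 0.249 and 0.681 CPM in WT-O2 retinas. In GSDMD-KO it was at 2.60, 2.29 and 2.42 CPM in room air and at 0.278, 0.273 and 0.170 CPM after hyperoxia. The hyperoxia-exposed retinas all lay below the room air ones, on 5 to 20 counts per library against 51 to 84. The log2 fold change, given as a description because the gene was picked on it, was -2.62 in WT and -3.32 in GSDMD-KO, or 6.14 and 9.98 times lower. Without the 3 lens-rich room air retinas it was -2.46 and -3.32. Between the genotypes, which the choice did not use, KO-O2 minus WT-O2 was -0.77 (SE 0.41, adjusted p = 0.485) and KO-RA minus WT-RA -0.07 (SE 0.37, adjusted p = 0.963).

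Gja4 was the clearest rise. It was at 4.72, 4.08 and 4.67 CPM in WT-RA and at 16.0, 9.57 and 9.36 CPM in WT-O2. The GSDMD-KO retinas held 4.36, 3.70 and 4.33 CPM in room air and 7.50, 11.6 and 8.65 CPM after hyperoxia. All 6 hyperoxia-exposed retinas were above all 6 room air retinas. Its log2 fold change was 1.37 (SE 0.23, adjusted p = 0.012) in WT and 1.16 (SE 0.23, adjusted p = 0.0213) in GSDMD-KO. Gja4 thus rose in the retina where it fell in the lung. Oxygen levels, ages and times of collection differed between the tissues, and the difference between them was not tested.

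Dll4, the ligand of vessel sprouts, was at 1.80, 2.33 and 2.18 CPM in WT-RA and at 5.50, 6.58 and 5.75 CPM in WT-O2. It was at 1.01, 2.42 and 1.75 CPM in KO-RA and at 4.37, 3.32 and 2.68 CPM in KO-O2. Exposures did not overlap in either genotype, and the 3 KO-O2 retinas lay below the 3 WT-O2 retinas. Dll4 rose at a log2 fold change of 1.50 (SE 0.30, adjusted p = 0.027) in WT and 1.00 (SE 0.30, adjusted p = 0.0891) in GSDMD-KO. KO-O2 minus WT-O2 was -0.78 (SE 0.29, adjusted p = 0.281), which did not pass the test. The rise in GSDMD-KO lay close to the threshold and lost its call in 10 of 12 fits that each left out 1 retina, with values of 0.73 to 1.32. In WT it lost the call in 1 fit, without WT-RA replicate 1 (1.40, adjusted p = 0.111).

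Notch1, the receptor, was at 10.3, 12.9 and 10.2 CPM in WT-RA and at 22.0, 36.4 and 22.6 CPM in WT-O2. In GSDMD-KO it was at 9.70, 18.5 and 28.0 CPM in room air and at 11.9, 16.6 and 17.4 CPM after hyperoxia. It rose in WT at a log2 fold change of 1.28 (SE 0.34, adjusted p = 0.0744) and was at -0.29 (SE 0.33, adjusted p = 0.683) in GSDMD-KO, where the room air retinas spread widely. The difference of these effects was -1.57 (95% interval -2.60 to -0.54, adjusted p = 0.285). The rise in WT lost its call in 9 of 12 fits that each left out 1 retina, among them WT-O2 replicate 2, without which it was 1.00 (adjusted p = 0.245).

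Jag1, the other ligand, fell in GSDMD-KO and did not pass the test in WT. It was at 51.2, 57.1 and 66.3 CPM in WT-RA and at 62.8, 58.3 and 64.9 CPM in WT-O2. In KO-RA it was at 64.6, 64.7 and 63.3 CPM and in KO-O2 at 51.6, 39.1 and 46.7 CPM. The KO-O2 retinas were below those of KO-RA and WT-O2, and overlapped WT-RA. Its log2 fold change was -0.49 (SE 0.12, adjusted p = 0.0432) in GSDMD-KO and 0.09 (SE 0.12, adjusted p = 0.754) in WT. The difference of these effects was -0.58 (95% interval -0.94 to -0.22, adjusted p = 0.25) by edgeR and -0.58 (adjusted p = 0.045) by DESeq2. The call in GSDMD-KO was lost in 5 of 12 fits that each left out 1 retina, among them every KO-RA retina, with values of -0.58 to -0.39.

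The other 5 genes gave no change past the threshold. Efnb2 ranged from 7.67 to 14.1 CPM, with a log2 fold change of -0.30 (95% interval -0.71 to 0.12) in WT and 0.15 (-0.26 to 0.56) in GSDMD-KO. Hey1 ranged from 13.2 to 19.1 CPM, with -0.08 (-0.40 to 0.24) and 0.03 (-0.28 to 0.35), so a fall of 1 on the log2 scale lay outside both intervals. Sema3g was at 1.11 to 2.24 CPM with -0.04 (-0.70 to 0.61) and -0.12 (-0.77 to 0.54). Bmx at 0.237 to 0.954 CPM and Gja5 at 0.191 to 0.885 CPM rested on 5 to 26 counts per library, and their intervals reached past 1 on the log2 scale in both directions for Bmx and upwards for Gja5.

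**Figure D2:**
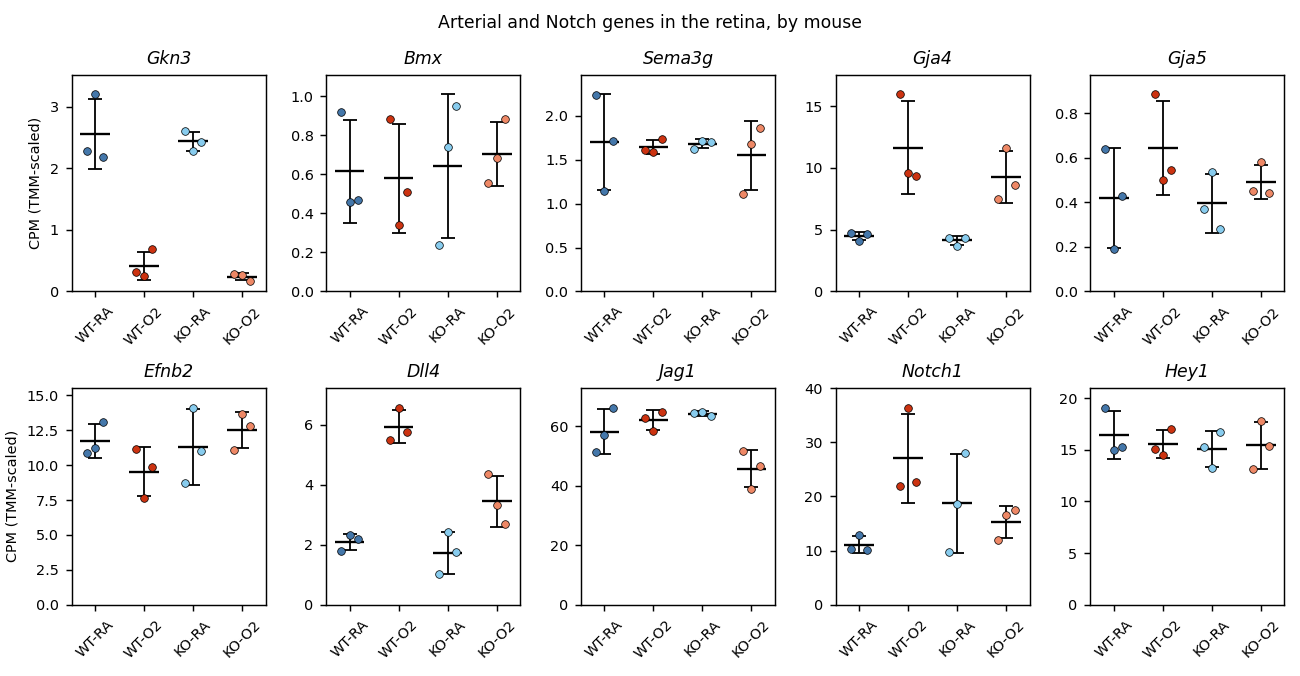
Levels of the 10 genes in the retina in CPM (vertical axis, from 0) in the 4 groups. Points are single mice, lines are means and bars SDs of 3 mice. Gkn3 lay between 0.170 and 0.681 CPM in hyperoxia-exposed mice and between 2.18 and 3.20 CPM in room air mice, and Gja4 and Dll4 lay higher after hyperoxia.

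**Figure D3:**
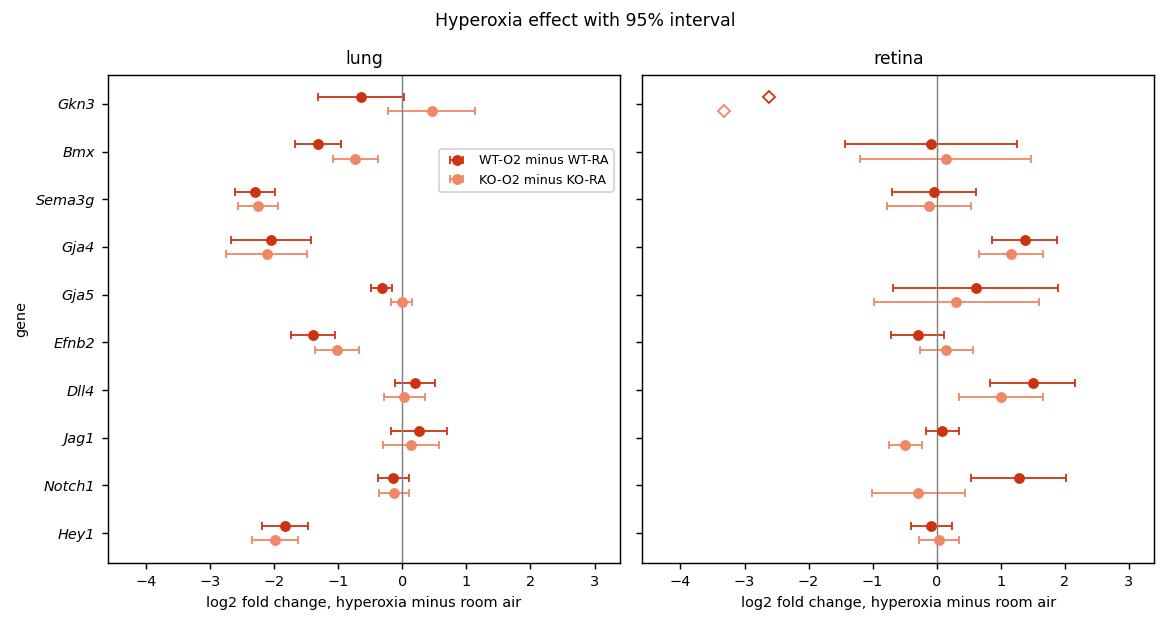
Log2 fold change of hyperoxia against room air (horizontal axis) for the 10 genes in the lung (left) and the retina (right), in WT and GSDMD-KO, with 95% intervals. Open diamonds mark Gkn3 in the retina, which was chosen by this contrast and has no interval drawn. Gja4 was at -2.06 and -2.12 in the lung and at 1.37 and 1.16 in the retina.

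Lens RNA and sex were unevenly spread over the exposures in the retina. Summed markers of the retinal pigment epithelium lay lower after hyperoxia without overlap in GSDMD-KO and overlapped between exposures in WT. Those 6 pigment epithelium markers summed to 164 to 482 CPM in WT-RA and 84.9 to 202 CPM in WT-O2, and to 235 to 1925 CPM in KO-RA and 75.9 to 205 CPM in KO-O2. Their median log2 fold change was -1.33 in WT and -2.46 in GSDMD-KO. None was past the adjusted threshold by edgeR, and 0 and 4 of 6 were past an unadjusted p of 0.05, a share not counted over all genes. Their part in the results was not tested. Without the 3 lens-rich room air retinas, Gja4 was at 1.29 (adjusted p = 0.137) Dll4 at 1.72 (adjusted p = 0.139) and Notch1 at 1.39 (adjusted p = 0.158) in WT, where 1 room air retina is then left. In GSDMD-KO Gja4 was then at 1.20 (adjusted p = 0.0956), Dll4 at 1.01 (adjusted p = 0.232) and Jag1 at -0.49 (adjusted p = 0.0997). These values kept the direction they had with all retinas, while Notch1 in GSDMD-KO, past the threshold in neither, was at 0.12 (adjusted p = 0.908) against -0.29. With sex as a term Dll4 was at 1.41 (adjusted p = 0.125) in WT and 0.91 (adjusted p = 0.239) in GSDMD-KO and Notch1 at 1.20 (adjusted p = 0.27) in WT, while Gja4 stayed past the threshold in both.

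Endothelial and pericyte RNA was higher in the hyperoxia-exposed retinas. The 15 pan-endothelial markers summed to 194 to 236 CPM in WT-RA, 395 to 465 CPM in WT-O2, 217 to 238 CPM in KO-RA and 331 to 376 CPM in KO-O2. Of these markers 12 were higher in WT and 11 in GSDMD-KO and none lower, with median log2 fold changes of 1.07 and 0.86. Cdh5, the cadherin of endothelial junctions, was at 1.52 (adjusted p = 0.00294) in WT and 0.95 (adjusted p = 0.0225) in GSDMD-KO, and Pecam1, an adhesion molecule of endothelium, at 1.24 (adjusted p = 0.00184) and 0.80 (adjusted p = 0.0153). Ecscr, which regulates endothelial migration, was at 2.83 (adjusted p = 0.00104) and 1.95 (adjusted p = 0.00424). Pericyte markers, a list of 6 that includes Notch3, summed to 72.8 to 86.8 CPM in WT-RA and 177 to 229.5 CPM in WT-O2, and to 93.4 to 98.7 CPM in KO-RA and 118 to 187 CPM in KO-O2. All 6 were higher in WT and 4 in GSDMD-KO, with medians of 0.93 and 0.63. The part of endothelial and pericyte RNA in the changes of Gja4, Dll4 and Notch1 was not tested beyond the scaling below. Of the 15 endothelial markers 1, the transcription factor Sox18, was at 1.49 (adjusted p = 0.00423) in WT and 0.67 (adjusted p = 0.0938) in GSDMD-KO, and was lower in KO-O2 than in WT-O2, at -0.87 (adjusted p = 0.0972).

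**Figure D4:**
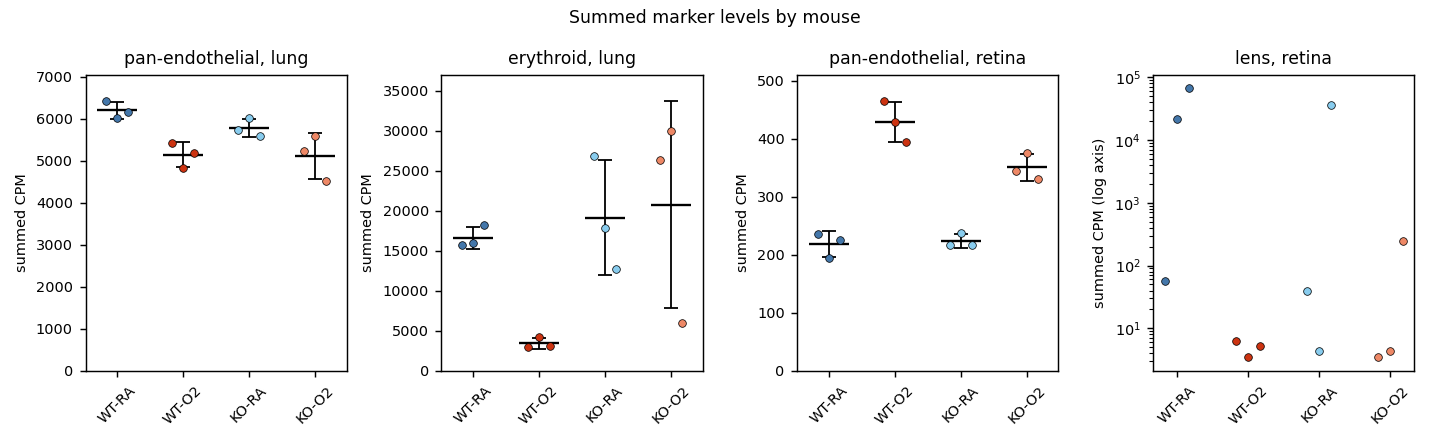
Summed CPM of marker lists by mouse in the 4 groups: pan-endothelial and erythroid markers in the lung, and pan-endothelial and lens markers in the retina (lens on a log axis). Points are single mice, and in the first 3 panels lines are means and bars SDs of 3 mice. Pan-endothelial markers were higher in hyperoxia-exposed retinas, and lens markers were at 21430 CPM or more in 3 room air retinas.

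Relative to endothelial counts the median of all genes moved to -0.97 in WT and -0.64 in GSDMD-KO, and 71.4% and 60.8% of all genes were lower and 1.22% and 1.51% higher past the threshold. Of the 9 genes counted 4 were lower and none higher in WT, and 5 were lower and 1 higher in GSDMD-KO. Gja4 was then at 0.38 (adjusted p = 0.13) in WT and 0.50 (adjusted p = 0.0607) in GSDMD-KO, and Dll4 at 0.51 (adjusted p = 0.163) and 0.37 (adjusted p = 0.34). Of these only the value of Gja4 in GSDMD-KO was past the threshold. Gkn3 was at -3.58 and -3.97 on that scale. A value at the median of all genes on this scale is that shift alone. Efnb2 was at -1.28 (adjusted p = 6.45e-05) in WT and -0.49 (adjusted p = 0.0392) in GSDMD-KO, Hey1 at -1.04 (adjusted p = 0.000115) and -0.62 (adjusted p = 0.0073), Sema3g at -0.99 (adjusted p = 0.0132) and -0.76 (adjusted p = 0.0563), and Jag1 at -0.89 (adjusted p = 0.000298) and -1.13 (adjusted p = 0.000491). Notch1 was at 0.29 (adjusted p = 0.485) in WT and -0.94 (adjusted p = 0.0412) in GSDMD-KO. Hey1, Jag1 and Efnb2 are also made by retinal cells other than endothelium, and whole retinas do not separate these sources.

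**Figure D5:**
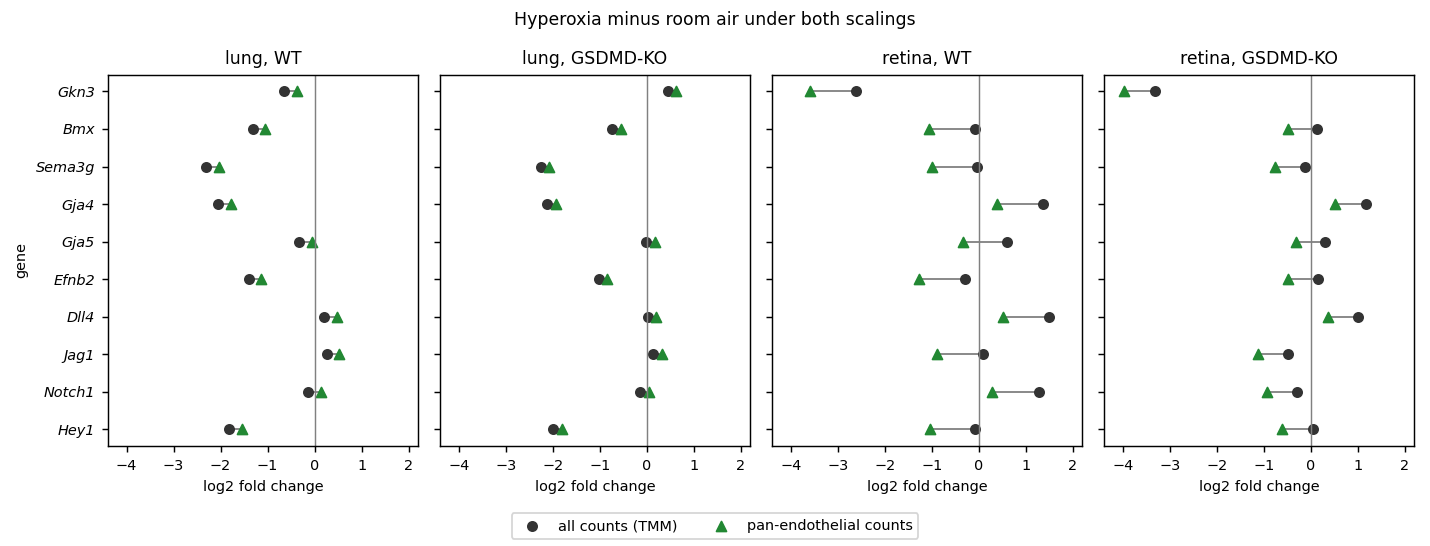
Log2 fold change of hyperoxia against room air (horizontal axis) for the 10 genes with libraries scaled to all counts by TMM (circles) and to the summed counts of 15 pan-endothelial markers (triangles), by tissue and genotype. The circles and triangles lay close together in the lung and were further apart in the retina, where the median of all genes moved to -0.97 in WT and -0.64 in GSDMD-KO.

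Among the rest of the pathway in the retina, where 3.11% of all genes were higher in WT and 4.38% in GSDMD-KO, Notch ligands and receptors were higher in 2 of 7 genes in each genotype and lower in none. Dlk1, a noncanonical ligand, was at 2.76 (SE 0.63, adjusted p = 0.0441) in WT and 2.12 (SE 0.63, adjusted p = 0.0883) in GSDMD-KO, Notch3, the receptor of mural cells, at 0.98 (adjusted p = 0.0949) and 0.34 (adjusted p = 0.53), and Jag2 at 0.06 (adjusted p = 0.874) and 0.63 (adjusted p = 0.0308). Of 5 other Notch targets 1 was higher in each genotype. Nrarp, a feedback inhibitor of Notch, was at 0.66 (adjusted p = 0.0242) in WT and 0.21 (adjusted p = 0.388) in GSDMD-KO, and Heyl at 1.05 (adjusted p = 0.122) and 1.64 (adjusted p = 0.0215). None of the 19 machinery genes passed the test in either genotype by edgeR. At an unadjusted p of 0.05, 4 passed in WT and 2 in GSDMD-KO, a share not counted over all genes. Of 14 further arterial genes 5 were higher in WT and 3 in GSDMD-KO and none lower. Cxcr4 was at 2.22 (adjusted p = 0.00913) and 1.71 (adjusted p = 0.0246), Mgp, a matrix protein, at 1.85 (adjusted p = 0.0173) and 1.69 (adjusted p = 0.0213), Nrp1, a VEGF co-receptor, at 0.95 (adjusted p = 0.0069) and 0.43 (adjusted p = 0.115), and Tm4sf1 at 1.34 (adjusted p = 0.0265) and 0.77 (adjusted p = 0.131). Of 8 venous genes 3 were higher in WT and 1 in GSDMD-KO, with Vwf, a clotting factor, at 1.20 (adjusted p = 0.0143) and 1.51 (adjusted p = 0.00504), Aplnr at 1.54 (adjusted p = 0.039) and 1.01 (adjusted p = 0.118), and Ephb4 at 0.95 (adjusted p = 0.0643) and 0.64 (adjusted p = 0.163). Cxcr4, like Gja4, thus fell in the lung and rose in the retina. Among the genes named here for the retina, Dlk1, Vwf, Sox18, Pecam1 and Ecscr did the same in both genotypes.

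Between KO-O2 and WT-O2 retinas none of the 10 genes passed an adjusted p of 0.1 by edgeR, beside 1.27% of all genes, where Dll4, Jag1 and Notch1 were past an unadjusted p of 0.05. These 3 were lower in KO-O2 with no overlap of the mice, beside 6.27% of all genes lower at an unadjusted p under 0.05 and 9.86% lower with no overlap. Their log2 differences were -0.78 (95% interval -1.42 to -0.14), -0.44 (-0.69 to -0.18) and -0.82 (-1.55 to -0.09), with adjusted p of 0.281, 0.138 and 0.327. By DESeq2 Jag1 passed at -0.45 (adjusted p = 0.0105). Pan-endothelial markers were also lower in KO-O2 than in WT-O2 with no overlap of their sums. Erythroid markers were at 369.8 to 429 CPM in KO-O2 and 983 to 1552 CPM in WT-O2, with 4 of 5 tested lower and a median log2 difference of -1.59. The part of both in these differences was not tested. Between KO-RA and WT-RA none passed by edgeR or DESeq2, beside 0.00522% of all genes, and Notch1 at 0.75 (95% interval 0.02 to 1.49) was past an unadjusted p of 0.05, beside 12.7%. The interaction called none of the 9 by edgeR, beside 0.00522% of all genes, with Jag1 and Notch1 past an unadjusted p of 0.05, beside 10.6%. DESeq2 called those 2, Notch1 at -1.57 (adjusted p = 0.0626).

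The 5 genes whose log2 levels followed Gkn3 most closely over the 12 retinas were Emb, P2rx2 and Slc18a2 (Pearson r = 0.96 for each), Coch (r = 0.945) and Rimkla (r = 0.92). The retinas fall into the exposure groups by which Gkn3 was chosen, so these values describe that split. P2rx2, an ATP-gated channel, averaged 9.95 CPM in WT-RA and 2.16 CPM in WT-O2, and 8.50 CPM in KO-RA and 1.25 CPM in KO-O2.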

How the data were processed

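Per the labels and the study's methods, libraries of whole lungs and whole retinas were sequenced as paired reads, quantified with kallisto and summed per gene. The authors deposited expected counts (estimated counts per gene) in 1 table per tissue. The labels name mm10 and the methods GRCm39, so the build is unsettled, and only RefSeq GRCm38.p6 promoters and GRCm38 exon overlaps were used. Whole numbers made up 55.8% of nonzero lung values and 2.20% of nonzero retina values.

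Counts were rounded and genes with low counts removed by filterByExpr, which left 16819 of 36109 genes in the lung and 19173 of 36595 in the retina. Each tissue was fitted alone over its 12 samples with edgeR 4.0.16 (R 4.3.3), with TMM scaling, the robust quasi-likelihood test and Benjamini-Hochberg adjustment over all genes tested. Contrasts were hyperoxia in each genotype, genotype in each exposure and their interaction. "Rose" and "fell" mean an adjusted p under 0.1. Intervals cover 95%. The fit was tested on simulated counts. Alternatives were DESeq2 1.42.0, RLE scaling, no filter, only the groups compared, sex as a term (Y-linked CPM over 20), scaling to pan-endothelial counts, a fold of at least 2 and leaving out single libraries. Promoter windows were searched for the RBPJ core TGGGAA, the SOX core ACAAT and the E-box CACGTG on both strands.

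The 10 members and the lists of other genes were chosen with earlier results of these data known. All 10 members were named. From each list at most 4 genes a tissue with an adjusted p under 0.1 in a hyperoxia contrast were named, those of smallest p, and the 5 most similar genes of Bmx and Gkn3 by Pearson r of log2 CPM. Beyond these, Unc5b and Dkk2 were named as the further arterial genes that were higher in WT lungs. Some genes named for the retina were also given their direction in the lung. Each mouse gave 1 library. Replicates were numbered in accession order. The mouse numbers in the labels fall in separate runs by genotype in each tissue, and what they stand for is not given. A difference that follows these numbers cannot be told apart from genotype. Nothing in the labels gives litters. The p-values therefore treat the mice as independent, and effects of shared litters cannot be seen.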

Additional observations from a re-analysis of the deposited data

Results flagged for a closer look

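Gja4 changed in opposite directions in the 2 tissues, and the exposure groups did not overlap in either tissue or genotype. In WT the log2 fold change of hyperoxia against room air was -2.06 in the lung and 1.37 in the retina. In GSDMD-KO it was -2.12 in the lung and 1.16 in the retina. The difference between tissues was not tested, because their tables were normalized separately and oxygen level, age and time of collection differed. No other gene of the 10, Gkn3 left aside, had groups apart in opposite directions in both tissues. Summed pan-endothelial markers also lay lower after hyperoxia in the lung and higher in the retina, with no overlap in either genotype. Scaled to those markers, Gja4 was at -1.79 in WT and -1.93 in GSDMD-KO lungs. In the retina it was then at 0.38 (adjusted p = 0.13) and 0.50 (adjusted p = 0.0607). The part of endothelial RNA in the opposite movement was not tested beyond this scaling.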

How the results depend on the processing

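Of 1823 values of single genes under alternatives, 1758 kept their direction and their side of the threshold, or changed sign without passing it under either setting, which 114 did. A further 45 lost and 17 gained the threshold, and 3 turned. Those 3 came with scaling to pan-endothelial counts in the retina, which put Jag1 in WT at -0.89 and, in GSDMD-KO, Efnb2 at -0.49 and Hey1 at -0.62, where it moved the median of all genes to -0.97 and -0.64, so that these turns are about the size of the shift of all genes. In the lung the count of genes past the threshold stayed at 6 to 7 in WT and at 5 in GSDMD-KO when single libraries were left out. The single call between KO-RA and WT-RA lungs (range 0 to 1 without single libraries) became 0 with only the groups compared, with sex as a term, with pan-endothelial scaling and with a fold of at least 2. In the retina the 3 calls in WT (range 1 to 3) became 1 with sex as a term and 0 without the 3 lens-rich retinas, a setting added after seeing the data. With pan-endothelial scaling all 3 were lost and 4 genes were lower instead, where 71.4% of all genes were lower. The 3 calls in GSDMD-KO (range 1 to 3) became 6 with pan-endothelial scaling, 5 of them lower where 60.8% of all genes were lower, and 1 with a fold of at least 2. Between KO-O2 and WT-O2 retinas 0 calls (range 0 to 1) became 1 with DESeq2, Jag1, and 1 with pan-endothelial scaling, Efnb2 at 0.68 (adjusted p = 0.0576), where the median of all genes was 0.30. Without KO-O2 replicate 1, Jag1 passed at -0.53 (adjusted p = 0.0877). The retinal interaction went from 0 calls (range 0 to 1) to 2 with DESeq2, and without KO-O2 replicate 1 Jag1 passed at -0.67 (adjusted p = 0.099). The cause was not tested. Without the low-count filter Notch1 in WT (adjusted p = 0.103) and Dll4 in GSDMD-KO (adjusted p = 0.125) missed the threshold. With only the groups compared no interaction was fitted. No paired analysis was possible because the labels give no replicate numbers shared between groups. With 5 to 26 counts per retina, the depth limits Bmx and Gja5 most.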
